A study of Mus musculus with 4 samples.

Results

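The olfactory receptor genes of mouse chromosome 9 are described here by their DNA methylation in cultured germline stem cells. All genes that the RefSeq annotation of mm10 names Olfr plus a number on chromosome 9 were taken, which gave 133 of the 49550 annotated genes on chromosomes 1 to 19 and X. Of these, 129 are annotated as protein coding, 3 as transcribed pseudogenes and 1 as a miscellaneous RNA. A gap of more than 1 Mb separates them into 2 clusters. The proximal cluster holds 36 genes from Olfr24 to Olfr18 (chr9:18752692-20338094, 1.59 Mb), and the distal cluster holds 97 genes from Olfr160 to Olfr986 (chr9:37709348-40190094, 2.48 Mb). The prostate and testis expressed genes of the Pate family and Acrv1, which encodes a protein of the sperm acrosome, lie ahead of the distal cluster and were measured as context (chr9:35605093-36700845).

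Whole-genome bisulfite sequencing by post-bisulfite adaptor tagging compared germline stem cells, the cultured counterpart of spermatogonial stem cells, after about 5 months (5M-GS) and about 60 months (60M-GS) in culture. Both ages are wild type cells derived from the testis of Green mice, which carry an EGFP transgene driven by the actin promoter, named C57BL/6 Tg14(act-EGFP)OsbY01, on a DBA/2 background. Both were grown with FGF2, GDNF and a low dose of fetal bovine serum, so that only the time in culture separates them in the labels. The series lists 2 replicates of each age, but each age has 1 table named for both, and every test below therefore compares 2 pooled libraries with no measure of the spread between cultures. Whether the replicates were separate cultures, and whether the old cells descend from the young ones, is not given in the sources used here. Transcripts were not measured, so the cell type was not checked against expressed markers.

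Olfactory receptors are G protein-coupled receptors with which sensory neurons of the nose detect odorants. They form the largest gene family of the mouse, sit in tandem arrays on many chromosomes, and are encoded mostly by a single coding exon of about the same size. Each mature neuron expresses a single receptor allele while the others lie in heterochromatin, and most promoters of the family hold few CpGs. In cells outside the olfactory epithelium the arrays are mostly silent, though some receptors are transcribed in the testis.

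Starts were given for 108 of the 133 genes, with 109 RefSeq sequences (GRCm38.p6, the assembly of mm10) that run from 250 bases before to 50 bases after the annotated start. An ATG stands at the annotated start of 68 of these 109, so for many genes the start is that of the coding sequence and the true promoter may lie further upstream. These sequences were poor in CpGs. The median was 1 CpG in 300 bases, against 7 over all 32851 such sequences of the genome, and 38 of the 109 (34.9%) held none, against 5.43% of all. A further 58 held 1 or 2 CpGs, 10 held 3 or 4, and 3 held 5 or more, with 8 as the highest number. G and C made up 34.4% of their bases, against 53.8% over all. The letters TAATTA, the core bound by homeodomain proteins such as Lhx2, occurred in 28 (25.7%), against 5.29% of all sequences. The inverted repeat bound by the Ebf factors of olfactory neurons occurred in 0 of the 109, against 0.904% of all. TAATTA holds only A and T, and the fixed bases of the repeat are mostly G and C. Neither share was compared at equal base composition, so no excess or lack of binding sites can be read from them. TAATTA reads the same on both strands, and of the 5 sequences printed below only that of Olfr877 holds TAATTA.

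Of these, 5 sequences are printed to show what the measurements below rest on, from starts with several CpGs to a start with none, each 5′ to 3′ with CpGs in capitals. Olfr982 and Olfr976 were chosen for the largest differences at the start, Olfr914 for a single CpG that differed, Olfr877 for several CpGs that stayed high, and Olfr835 for the lack of any CpG. They were chosen after their values were seen.
Olfr982 (chr9:40074047-40074346, + strand): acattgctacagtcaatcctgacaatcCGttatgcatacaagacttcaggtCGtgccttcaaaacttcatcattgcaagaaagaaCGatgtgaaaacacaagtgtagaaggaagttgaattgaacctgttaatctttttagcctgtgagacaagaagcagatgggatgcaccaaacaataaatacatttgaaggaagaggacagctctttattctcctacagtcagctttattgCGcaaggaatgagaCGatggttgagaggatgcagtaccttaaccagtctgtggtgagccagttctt
Olfr976 (chr9:39960995-39961294, - strand): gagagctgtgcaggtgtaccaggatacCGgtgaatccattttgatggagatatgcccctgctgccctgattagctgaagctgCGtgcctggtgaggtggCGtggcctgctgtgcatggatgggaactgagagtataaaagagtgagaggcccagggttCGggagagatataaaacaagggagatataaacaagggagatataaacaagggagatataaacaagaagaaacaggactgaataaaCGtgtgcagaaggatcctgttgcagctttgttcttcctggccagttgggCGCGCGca
Olfr914 (chr9:38606217-38606516, + strand): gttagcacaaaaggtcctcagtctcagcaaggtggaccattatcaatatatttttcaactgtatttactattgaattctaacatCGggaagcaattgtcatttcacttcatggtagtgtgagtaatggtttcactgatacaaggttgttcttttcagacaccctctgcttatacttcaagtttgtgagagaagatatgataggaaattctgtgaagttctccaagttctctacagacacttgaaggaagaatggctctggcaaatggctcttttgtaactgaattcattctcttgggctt
Olfr877 (chr9:37854570-37854869, + strand): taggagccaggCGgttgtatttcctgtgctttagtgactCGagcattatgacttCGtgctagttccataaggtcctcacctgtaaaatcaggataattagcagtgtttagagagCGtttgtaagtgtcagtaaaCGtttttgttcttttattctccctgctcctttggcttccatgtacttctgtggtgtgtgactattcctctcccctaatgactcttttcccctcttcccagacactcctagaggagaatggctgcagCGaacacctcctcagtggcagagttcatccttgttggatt
Olfr835 (chr9:19034875-19035174, + strand): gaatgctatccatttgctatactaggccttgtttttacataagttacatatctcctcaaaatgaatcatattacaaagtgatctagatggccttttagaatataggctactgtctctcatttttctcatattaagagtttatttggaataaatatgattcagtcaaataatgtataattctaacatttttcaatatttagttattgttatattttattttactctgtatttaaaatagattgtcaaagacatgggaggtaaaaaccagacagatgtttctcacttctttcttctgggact

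In Olfr982 the 5 CpGs moved together. The CpG at base 86 of the printed sequence was methylated in 11 of 42 calls (26.2%) of the young and in 42 of 49 (85.7%) of the old cells. The CpG at base 52 had 17 of 40 methylated calls (42.5%) and then 41 of 50 (82.0%), and the last, at base 249, had 2 of 11 (18.2%) and then 12 of 14 (85.7%). Every CpG of this start was thus below 63% in the young and above 80% in the old cells. In Olfr976 the CpG at base 159 went from 2 of 24 methylated calls (8.33%) to 15 of 18 (83.3%), and the middle one of the CGCGCG run, at base 295, had 4 of 16 (25.0%) and then 20 of 23 (87.0%). Of its 8 CpGs, 1 was not listed in both tables and 1 had fewer than 5 calls in a table. The only CpG of the Olfr914 sequence, at base 85, went from 17 of 45 methylated calls (37.8%) to 36 of 37 (97.3%). In Olfr877, by contrast, the CpG at base 12 had 34 of 36 (94.4%) and then 27 of 28 (96.4%), and the one at base 40 had 31 of 36 (86.1%) and then 28 of 31 (90.3%). A CpG-bearing start was therefore low in the young cells in some of these genes and already high in others.

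Over the 133 genes, 60M-GS cells were more methylated. The level of a gene is the percent of methylated calls on the CpGs of its span and 2 kb on each side, each covered by 5 or more calls in the young and in the old cells, and a gain or loss was called where the level differed by 20 percentage points or more and a two-sided Fisher's exact test gave an adjusted p under 0.05 (Benjamini-Hochberg, over all genes). All 133 genes had the 4 CpGs needed for the test. Of them, 19 gained methylation (14.3%), against 4.35% of the 47815 genes tested. None lost methylation by this rule, against 0.0502% of all genes. Without the limit on size, 51 had a higher and 2 a lower level at an adjusted p under 0.05, and 4 were lower at an unadjusted p under 0.05. Over all 47815 genes 13419 were higher and 6324 lower at an adjusted p under 0.05, and 7870 were lower at an unadjusted p under 0.05. The difference was positive in 98 and negative in 35 (25912 and 21894 over all genes). In 64 of the 133 it was within 5 points, against 37800 of all 47815 genes. The median level moved from 79.0% to 86.3%, with a median difference of 3.32 points, against 0.277 points over all genes. Levels of at least 80% were found in 61 genes of the young cells and in 108 of the old (17770 and 20868 over all genes).

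The gene regions were small, with a median of 15 CpGs (4 to 117) against 119 over all genes, and the depth was about 20 calls per CpG in both tables. Among all genes with 4 to 117 CpGs the share that gained was 8.19%. The olfactory receptor genes of the other chromosomes gained in 66 of 979 cases (6.74%), with 1 loss. On chromosome 2 this was 14 of 287 and on chromosome 7 it was 16 of 237. The shares were higher on chromosomes 16 (4 of 38, 10.5%), 19 (8 of 63, 12.7%) and 17 (11 of 50, 22.0%). The share on chromosome 9 was above that of the other chromosomes pooled, near that of chromosome 19 and below that of chromosome 17. The median difference on chromosome 9 (3.32 points) was exceeded on chromosomes 16 (10.2 points), 17 (5.65 points) and 19 (4.42 points). On chromosomes 1, 2, 4, 6, 7, 10, 11, 13 and 14 the median difference was smaller. No test of these shares or medians was made. When the calls of each region were divided by its number of CpGs, so that each region counted about as many calls as a single CpG, no gene was called (0 of 133, against 0.105% of all genes). The differences stay the same in that setting, and few calls per region remain.

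**Figure D1:**
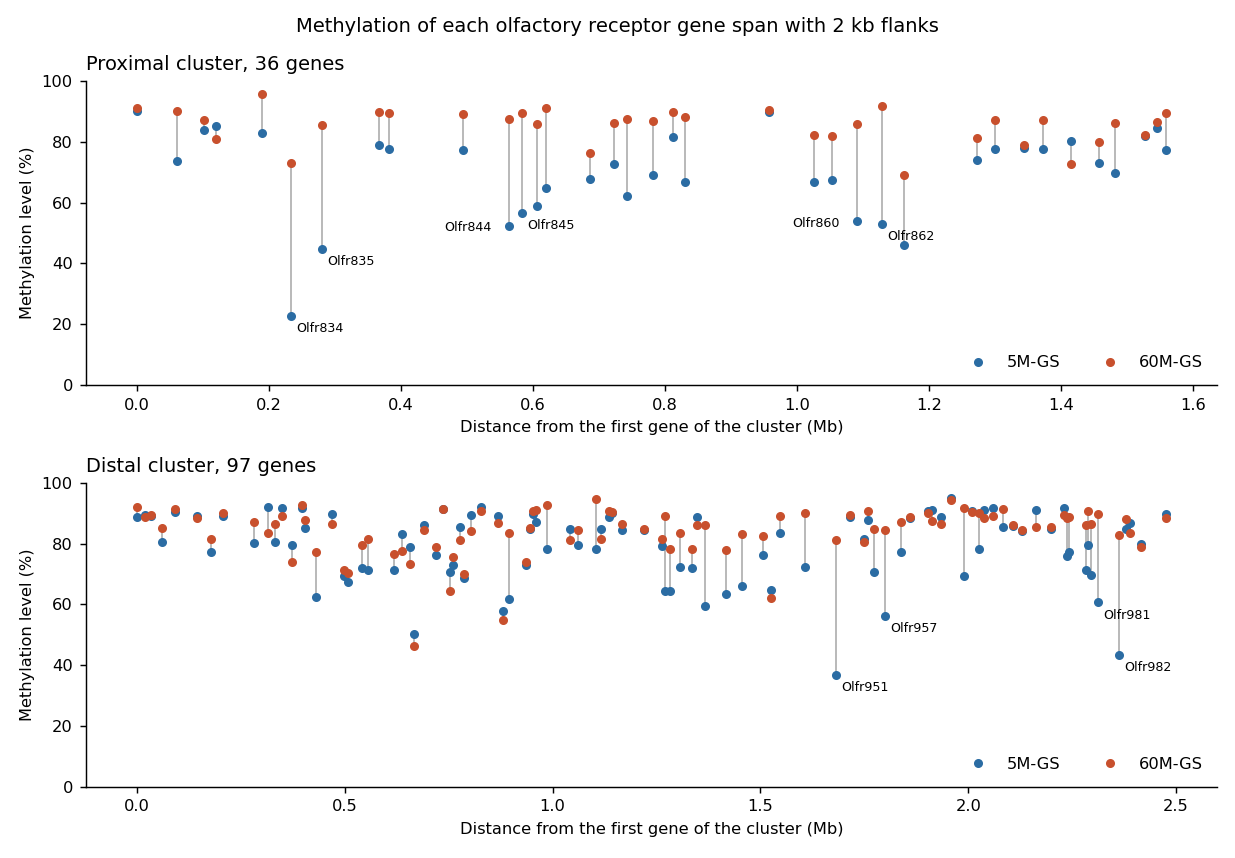
Methylation level (%) of each olfactory receptor gene span with 2 kb flanks against its distance (Mb) from the first gene of the cluster, with 5M-GS in blue, 60M-GS in red and a grey line joining both values of a gene. In the proximal cluster 34 of the 36 red points lie above their blue points, while in the distal cluster long lines are few and most pairs lie close together between 70% and 95%.

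The gain was more widespread in the proximal cluster. There 11 of 36 genes gained (30.6%), 34 were higher in 60M-GS, and the median level was 73.4% and then 87.1%, with a median difference of 12.4 points (−7.62 to 50.2). In the distal cluster 8 of 97 gained (8.25%), 64 were higher, and the median level was 81.5% and then 86.2%, with a median difference of 1.17 points (−8.30 to 44.4). The old cells thus had similar median levels in both clusters, while the young cells were lower in the proximal one. The spread between genes also narrowed, from an SD of 14.3 to 5.85 points over the 36 proximal genes and from 11.6 to 7.96 points over the 97 distal genes. Over all genes 4.35% gained, and 8.19% of those with 4 to 117 CpGs. The share of gained genes in the distal cluster was near the latter, and only that of the proximal cluster was well above it.

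Olfr834, an olfactory receptor gene of the proximal cluster like the next 4, had the largest difference of the 133 genes. Its 9 CpGs were methylated in 22.8% of 197 calls in 5M-GS (95% Wilson interval 17.5 to 29.2) and in 73.1% of 208 calls in 60M-GS (66.7 to 78.6), a difference of 50.2 points (Newcombe interval 41.2 to 57.9, adjusted p = 1.43e-23, Fisher's exact test). With flanks of 5 kb its difference was 16.6 points and not called. Its neighbour Olfr835 rose from 44.9% to 85.7%, by 40.8 points (32.6 to 48.1). Within these 48.1 kb the 2 genes are next to each other in the order of the 133. Olfr862 rose from 53.1% to 91.8%, by 38.7 points (32.5 to 44.5), Olfr844 from 52.4% to 87.7%, by 35.3 points (29.9 to 40.3), and Olfr845 from 56.6% to 89.5%, by 32.9 points (25.3 to 39.9), or by 20.8 points with 5 kb flanks. The last 2 belong to the longest run of gained neighbours, Olfr844 to Olfr847, 4 genes over 57.4 kb that all rose. Olfr860, Olfr862 and Olfr77 formed a run of 3 over 76.9 kb. The other gained proximal genes rose by 21.4 to 32.1 points, and Olfr77 was the gained gene with the lowest level in the old cells (46.2% and then 69.1%).

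Other genes of the same cluster hardly differed. Olfr24, the first gene, was at 90.1% and then 91.0%, Olfr857 at 89.7% and then 90.5%, and Olfr39 at 81.8% and then 82.3%, each a difference of less than 1 point with an interval that included 0. Olfr870 was the lowest, at 80.2% and then 72.6%, a difference of −7.62 points (−14.0 to −1.14, adjusted p = 0.0532, Fisher's exact test). Of these 4, 3 were above 81% in the young cells already.

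In the distal cluster Olfr951 had the largest difference. Its 35 CpGs were methylated in 36.8% of 787 calls in 5M-GS (33.5 to 40.3) and in 81.2% of 777 calls in 60M-GS (78.3 to 83.8), a rise of 44.4 points (39.9 to 48.6, adjusted p = 3.34e-72, Fisher's exact test). Olfr982, with 50 CpGs, rose from 43.4% to 82.7%, by 39.3 points (35.7 to 42.8), or by 65.3 points without flanks. Its neighbour Olfr981 rose from 60.6% to 89.8%, by 29.2 points (25.4 to 32.9), Olfr957 from 56.2% to 84.6%, by 28.3 points (23.8 to 32.7), and Olfr938 from 59.5% to 86.1%, by 26.6 points (20.8 to 32.3). The last pair depended on the flanks. Olfr938 differed by 11.7 points without them, no longer called, and by 51.9 points with 5 kb. Olfr957 differed by −4.14 points without them and by 16.7 points, not called, with 5 kb. Apart from Olfr981 and Olfr982, which lie side by side over 52.9 kb, the gained distal genes stood singly between genes that were not called. The 8 gained distal genes reached 81.2% to 91.7% in 60M-GS, while 52 of the 97 distal genes were at 80% or more in 5M-GS already.

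Of the distal genes that did not differ, Olfr916 was at 84.9% and then 85.0%, Olfr902 at 91.3% and then 91.4%, and Olfr874 at 89.2% and then 89.4%. Olfr963 had the highest level of all 133 in the young cells, at 94.9%, and was at 94.4% in the old. Olfr883 was at 91.9% and then 83.6%, a fall of 8.30 points (2.40 to 14.1, adjusted p = 0.0171, Fisher's exact test) that passed the test but not the limit on size. Olfr904 was at 70.5% and then 64.5%, and its interval of −14.1 to 2.27 points included 0. Only Olfr251 (50.4% and then 46.3%) and Olfr913 (57.8% and then 55.0%) were below 60% in both tables. They were named after their values were seen, and their intervals of −15.9 to 8.04 and −13.1 to 7.72 points included 0. A low level in the young cells therefore did not always go with a gain.

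At the limit of 20 points, Olfr855 (66.7% and then 88.1%, 21.4 points) and Olfr914 (61.8% and then 83.5%, 21.6 points) were just inside, and Olfr853 (69.0% and then 87.0%, 18.0 points) and Olfr948 (72.3% and then 90.0%, 17.7 points) just outside. The intervals of these 4 differences all included 20 points, so the count of 19 depends on where it was set. With 5 kb flanks Olfr855 was at 11.0 points and Olfr914 at 14.1 points, neither called. With a limit of 10 points 45 genes gained (9.75% of all genes), and with 30 points 8 gained (2.06% of all genes).

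The genes that gained were those that were low in the young cells. Below 60% in 5M-GS, 12 of 14 genes gained, and from 60% to 70%, 7 of 21. From 70% to 80% none of 37 passed the 20 points, although 33 were higher with a median difference of 9.43 points. Over all genes in that range 0.239% gained, and 5614 of 9640 were higher with a median difference of 0.501 points. Above 80%, where less than 20 points were left, none of 61 was called. Over all genes the share that gained was 11.4% below 60% in 5M-GS and 7.25% from 60% to 70%. These genes were not matched in CpGs, with medians of 156 and 222.5 against 16 and 13 in the receptor genes. Below 60% their median level in 5M-GS was also lower (42.9% against 52.7%). Across the 133 genes the level in 5M-GS and the difference had a Pearson r of −0.823 (Spearman −0.732), a description only, since the difference contains the 5M-GS level and counting error in it alone pulls r below 0. The 19 genes resembled the other 114 in span (median 942 bp and 948 bp), in CpG density (2.78 and 2.84 CpGs per kb) and in depth (21.3 and 20.1 calls per CpG in 5M-GS). Their regions held more CpGs, with a median of 19 against 14.5.

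**Figure D2:**
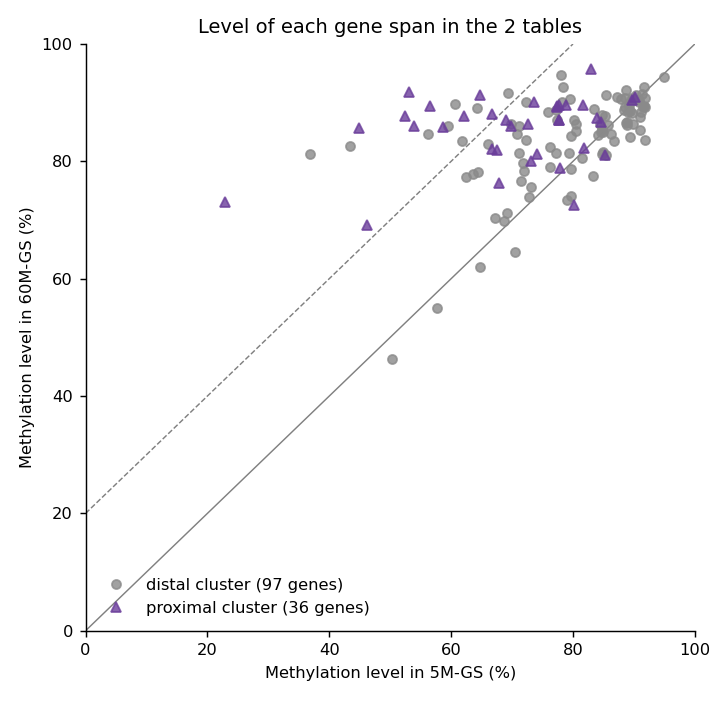
Methylation level (%) in 60M-GS against that in 5M-GS for each gene span with 2 kb flanks, with proximal genes as purple triangles and distal genes as grey circles. The solid line marks equal levels and the dashed line a gain of 20 points, and the genes above the dashed line start between 22.8% and 69.4% and end between 69.1% and 91.8%.

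Where in the region the methylation rose differed from gene to gene. Summed over the 19 genes that gained, the level was 52.2% and then 85.4% on 175 CpGs inside the genes, and 55.7% and then 85.8% on 250 CpGs in the flanks, so that neither part stood out. Single genes did differ. In Olfr982 the 21 CpGs inside the gene were at 12.1% and then 77.4%, while the flanks were at 69.7% and then 87.1%. In Olfr981 the gene itself was at 47.4% and then 90.0%, and the flanks were at 87.8% and then 89.3%. For this pair of neighbours the low methylation of the young cells lay mainly over the gene. Olfr951 was the reverse, with 97.1% and then 97.4% on 2 CpGs inside the gene and 34.1% and then 80.4% in the flanks. Olfr957 (91.5% and then 87.3% on 5 CpGs inside, 51.9% and then 84.3% outside) and Olfr934 (86.2% and then 90.9% inside, 56.7% and then 88.3% outside) were alike in this. Without the flanks, 100 genes had enough CpGs and 15 gained (5.57% of all genes did in this setting), of which 11 also gained with them. In the distal cluster only 2 of the 6 genes called without flanks were among the 8 called with them, namely Olfr981 and Olfr982. Olfr951 and Olfr914 have only 2 CpGs inside the gene and could not be tested there.

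**Figure D3:**
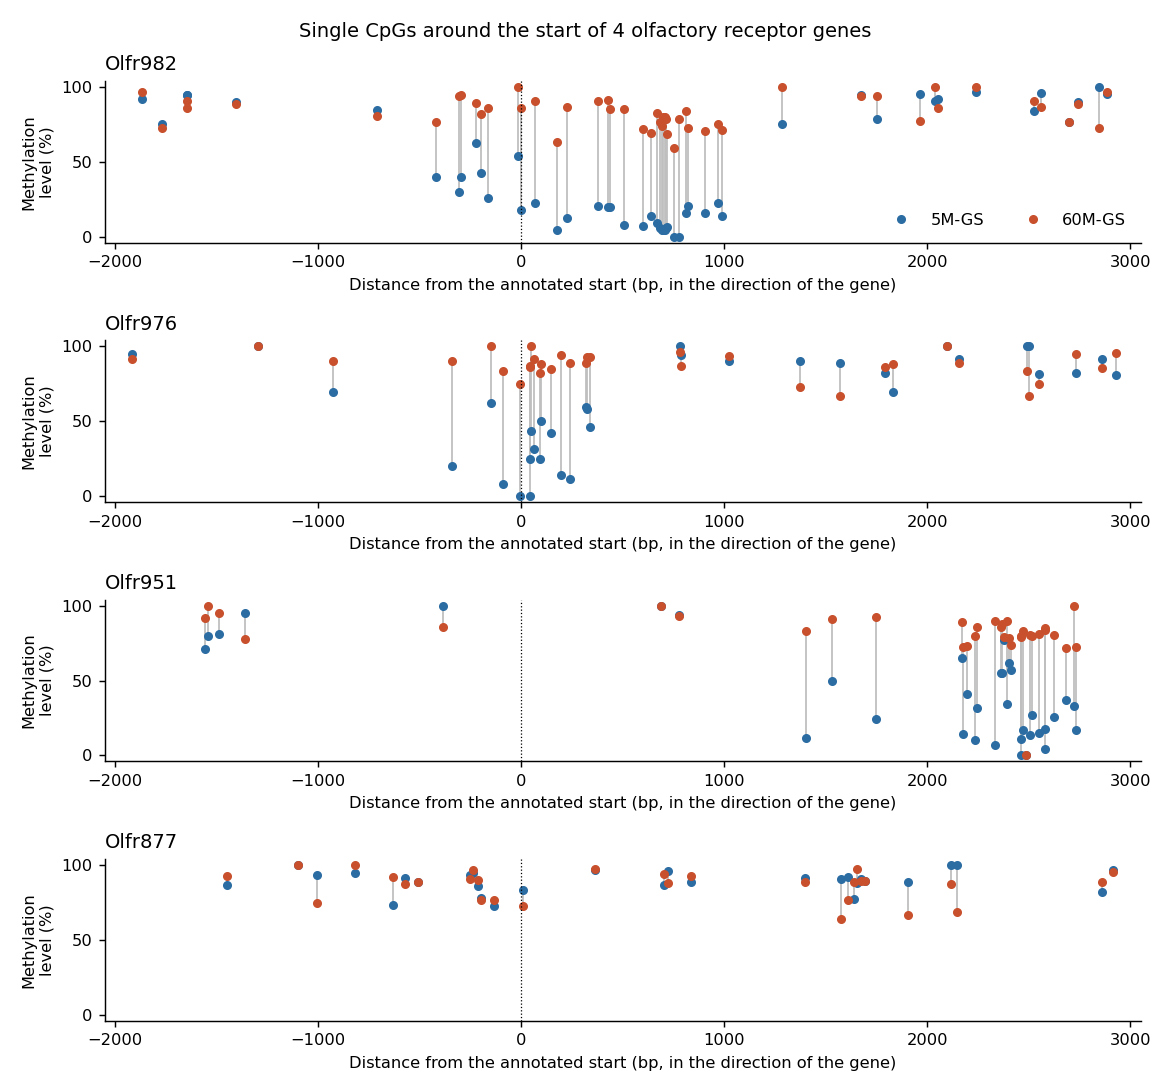
Methylation level (%) of single CpGs against their distance (bp) from the annotated start, in the direction of the gene, for Olfr982, Olfr976, Olfr951 and Olfr877, with 5M-GS in blue and 60M-GS in red. Blue points fall towards 0% inside Olfr982, at the start of Olfr976 and more than 1 kb behind the start of Olfr951, where nearly all red points are high. Just ahead of Olfr982 the blue points lie between 18.2% and 62.5%. In Olfr877 both colours stay above 60%.

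Single CpGs show how much of each region changed. In several proximal genes most CpGs rose by at least 20 points, with 8 of 9 in Olfr834, 10 of 12 in Olfr835, 13 of 16 in Olfr860 and 18 of 24 in Olfr844. Among the 50 CpGs of Olfr982, 32 rose by at least 20 points and 27 by at least 50, and their median level moved from 28.1% to 85.0%. Among the 35 CpGs of Olfr951, 26 rose by at least 20 points and 18 by at least 50, with a median of 33.3% and then 83.3%. In Olfr976, 17 of 60 CpGs rose by at least 20 points while the median was 88.6% and then 88.9%, so the change was limited to a short part of the region. In Olfr877, 0 of 29 CpGs rose by as much. Where both tables had 10 or more calls, 480 of the 2081 CpGs in these gene regions were at least 20 points higher in 60M-GS (23.1%), against 6.34% of all CpGs, and 59 were at least 20 points lower (2.84%), against 3.22% of all. In the proximal cluster the share that rose was 35.1% (204 of 582) and in the distal cluster 18.4% (276 of 1499). Intermediate levels of 20% to 80% became rarer, from 51.4% to 19.4% of the proximal CpGs and from 26.9% to 15.7% of the distal ones. CpGs below 20% fell in number from 125 to 55 (6.01% and then 2.64%), and 51 of these were below 20% in both. Over all CpGs, levels of 20% to 80% made up 14.8% and then 14.4%, and those below 20% made up 15.1% and then 13.9%. No test of single CpGs was made.

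In tiles of 1 kb, 276 tested tiles had their centre in a receptor gene or its 2 kb flanks. Of these, 50 gained and none lost, against 3.48% gained and 0.475% lost over all tiles (same call rule, Fisher's exact test, adjusted over all tiles). The gained tiles lay in the regions of 33 genes, 16 of which were not called over the whole region. Among tiles with 5 or more CpGs the largest difference was over Olfr982, in the tile from chr9:40074001 to 40075000, with 20.9% of 484 calls and then 81.8% of 545 calls methylated on 19 CpGs, a rise of 61.0 points (55.8 to 65.5). The next tile of the same gene rose from 20.1% to 76.3%. A tile at the start of Olfr976 rose from 27.3% to 87.1% on 6 CpGs, and a tile over Olfr862 from 35.3% to 91.4% on 5 CpGs. A tile ending 783 bp before the lower coordinate of Olfr957, a gene of the minus strand, rose from 31.3% to 85.7% on 17 CpGs. It lay wholly in the flank. Tiles with only 4 CpGs reached further both ways, from −12.7 points at Olfr869 (93.4% and then 80.7%, adjusted p = 0.169, Fisher's exact test) to 63.0 points over Olfr834 (12.3% and then 75.2%), and another tile at Olfr862 rose by 61.3 points. With 5 or more CpGs the lowest tile differences were −10.7 points next to Olfr968 (94.5% and then 83.9%, adjusted p = 0.158, Fisher's exact test) and −9.44 points at Olfr898 (56.0% and then 46.6%, adjusted p = 0.487, Fisher's exact test).

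At the starts, in windows from 1000 bp before to 500 bp after, 78 genes had enough CpGs and 13 gained, none lost, against 4.48% gained and 0.499% lost of all start windows. The 13 were Olfr832, Olfr835, Olfr845, Olfr846, Olfr851, Olfr862 and Olfr77 of 23 tested in the proximal cluster, and Olfr914, Olfr919, Olfr948, Olfr44, Olfr976 and Olfr982 of 55 in the distal one. Olfr982 rose from 31.0% to 84.5% on 15 CpGs, by 53.5 points (47.4 to 59.0, adjusted p = 3.05e-54, Fisher's exact test). Olfr976 rose from 35.9% to 88.9% on 17 CpGs, by 53.0 points (46.5 to 58.8, adjusted p = 1.62e-49, Fisher's exact test), while its whole region was not called (77.2% and then 88.7%). The printed sequences of these 2 genes fall inside these windows. Of the 13, 8 also gained over the whole region. Receptor gene starts were high in methylation in both tables, with a median of 82.1% and then 87.4%, where the median over the starts of all genes was 11.3% and then 14.2%. Their windows held a median of 6 CpGs, against 31 over all.

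The difference was not limited to the genes. Over the whole proximal cluster, genes and gaps together, 69.5% and then 84.8% of calls were methylated on 6465 CpGs, a rise of 15.3 points (15.0 to 15.6). The gaps alone rose by 15.3 points (69.3% and then 84.6%) and the gene regions alone by 15.0 points. Over the distal cluster the level was 75.7% and then 82.9% on 8529 CpGs, a rise of 7.21 points (6.95 to 7.48), with 6.95 points in the gaps and 8.18 in the gene regions. The proximal rise exceeded the distal one by 8.06 points (7.65 to 8.47). Of all 1 kb tiles of the proximal cluster 33.5% gained (222 of 662), with 197 of 581 in gaps and 25 of 81 in gene regions, and 2 lost. Of those of the distal cluster 12.4% gained (114 of 919), with 89 of 724 in gaps and 25 of 195 in gene regions, and 2 lost. In the gaps and in the gene regions with their flanks the share was much the same in each cluster. Over all tiles of the genome 3.48% gained and 0.475% lost.

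The rise ended near the edges of the proximal cluster. The 500 kb ahead of it rose by 2.53 points (77.9% and then 80.5%) and the 500 kb behind it by 1.41 points (64.8% and then 66.2%). In windows of 100 kb, 12 of its 15 windows were at least 10 points higher in 60M-GS, against 6.38% of all windows, and 0 of 4 were on either side. In windows of 20 kb this was 58 of 79, against 9.32% of all windows, and 0 were 10 points lower, against 0.0765% of all. The other 3 rose by 4.74 points (from chr9:18800001), 5.26 points (from chr9:19600001) and 7.04 points (from chr9:20100001). The middle one of these holds Zfp317, a zinc finger gene that is no receptor and was at 72.6% and then 73.3%. In the distal cluster 6 of 25 windows of 100 kb and 34 of 124 windows of 20 kb were at least 10 points higher. The 6 lay between chr9:38800001 and chr9:39500000, in the middle of the cluster, and the highest of them rose by 20.4 points. The 500 kb ahead of the distal cluster rose by 3.35 points, and the 500 kb behind it were at 71.9% and then 72.2%, with an interval of the difference of −0.118 to 0.583 points. Windows were described without a test.

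**Figure D4:**
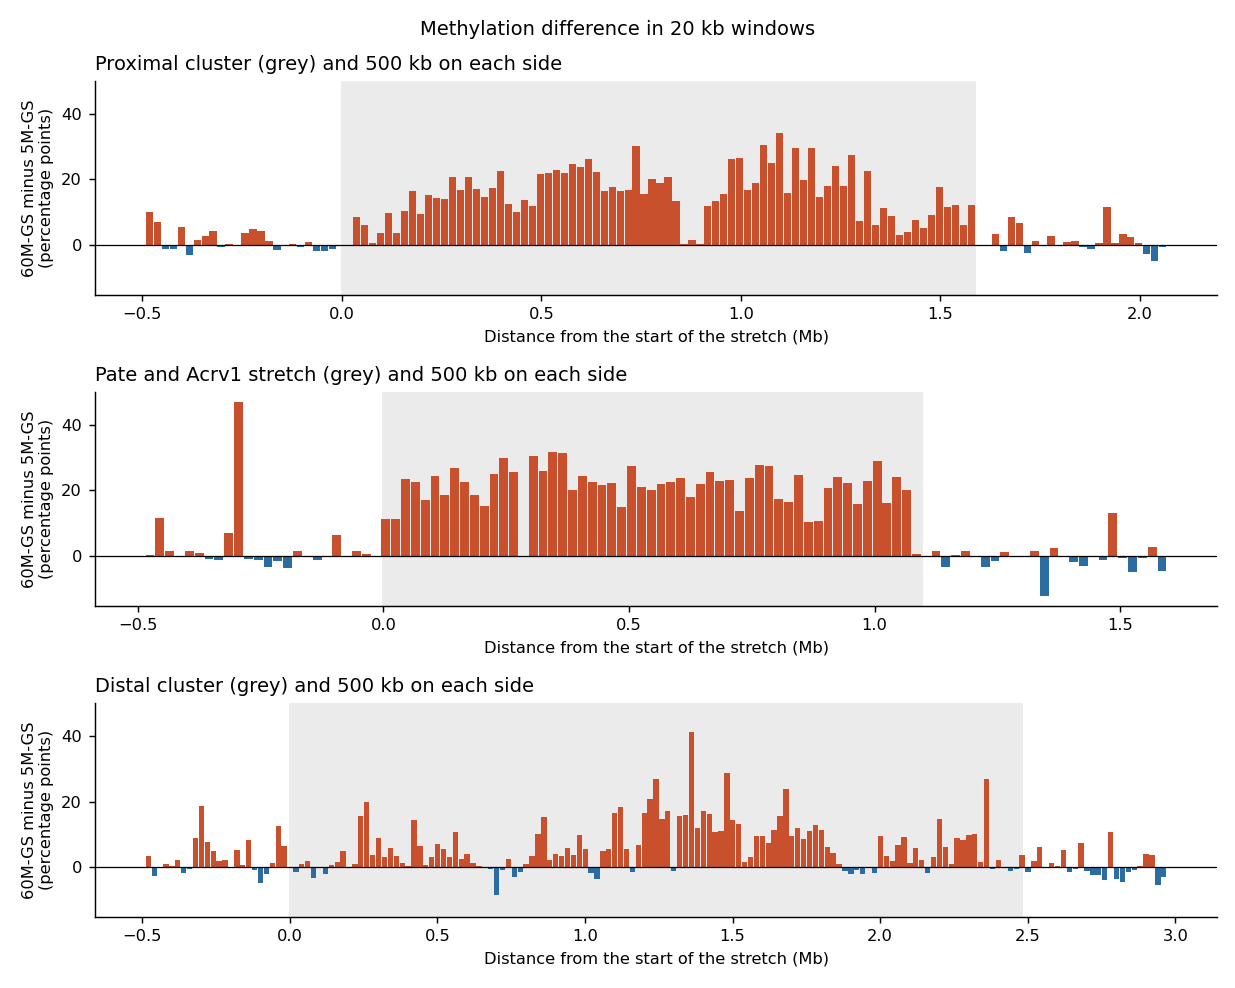
Difference in methylation level (60M-GS minus 5M-GS, percentage points) in windows of 20 kb against the distance (Mb) from the start of the proximal cluster, the Pate and Acrv1 stretch and the distal cluster, each shaded grey with 500 kb on both sides. Bars of 10 points or more fill most of the proximal cluster (58 of 79 windows) and of the Pate and Acrv1 stretch (53 of 54), and gather near the middle of the distal cluster (34 of 124).

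The Pate and Acrv1 stretch, about 1 Mb ahead of the distal cluster, rose more than either receptor cluster. Its level was 55.5% and then 76.2%, a rise of 20.7 points (20.3 to 21.1), and it was the only stretch called among the 40 olfactory receptor clusters and itself (2.44%). The rise of the proximal cluster minus that of this stretch was −5.44 points (−5.98 to −4.90). Of its 15 genes 5 gained, with Pate13 from 40.2% to 76.8%, Pate8 from 46.9% to 76.4% and Pate7 from 41.1% to 67.8% at the top. Acrv1 was at 89.6% in both tables, Pate4 at 85.8% and then 86.5%, and Pate11 at 73.4% and then 75.8%. Acrv1 and Pate4 stand at the 2 ends of the stretch. Between Acrv1 and the distal cluster the level rose by only 1.44 points (66.6% and then 68.0%), so the rise of the stretch and that of the distal cluster were not joined.

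Among the 40 clusters of at least 2 olfactory receptor genes in the genome, the proximal cluster had the largest rise and the distal cluster had rank 10. The nearest to the proximal cluster was the cluster of 27 genes from Olfr172 to Olfr209 on chromosome 16, with 66.3% and then 81.4%. The 2 differed in their rise by 0.216 points (−0.425 to 0.857), so their order cannot be told at this depth. The proximal cluster exceeded the largest cluster of the family, 225 genes from Olfr987 to Olfr1274 on chromosome 2, by 8.68 points (8.30 to 9.05), and that of 127 genes from Olfr543 to Olfr692 on chromosome 7 by 10.9 points (10.5 to 11.2). The distal cluster exceeded these 2 by 0.616 points (0.280 to 0.953) and 2.79 points (2.45 to 3.14). These intervals hold counting error alone, and clusters can differ by more than this between cultures.

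**Figure D5:**
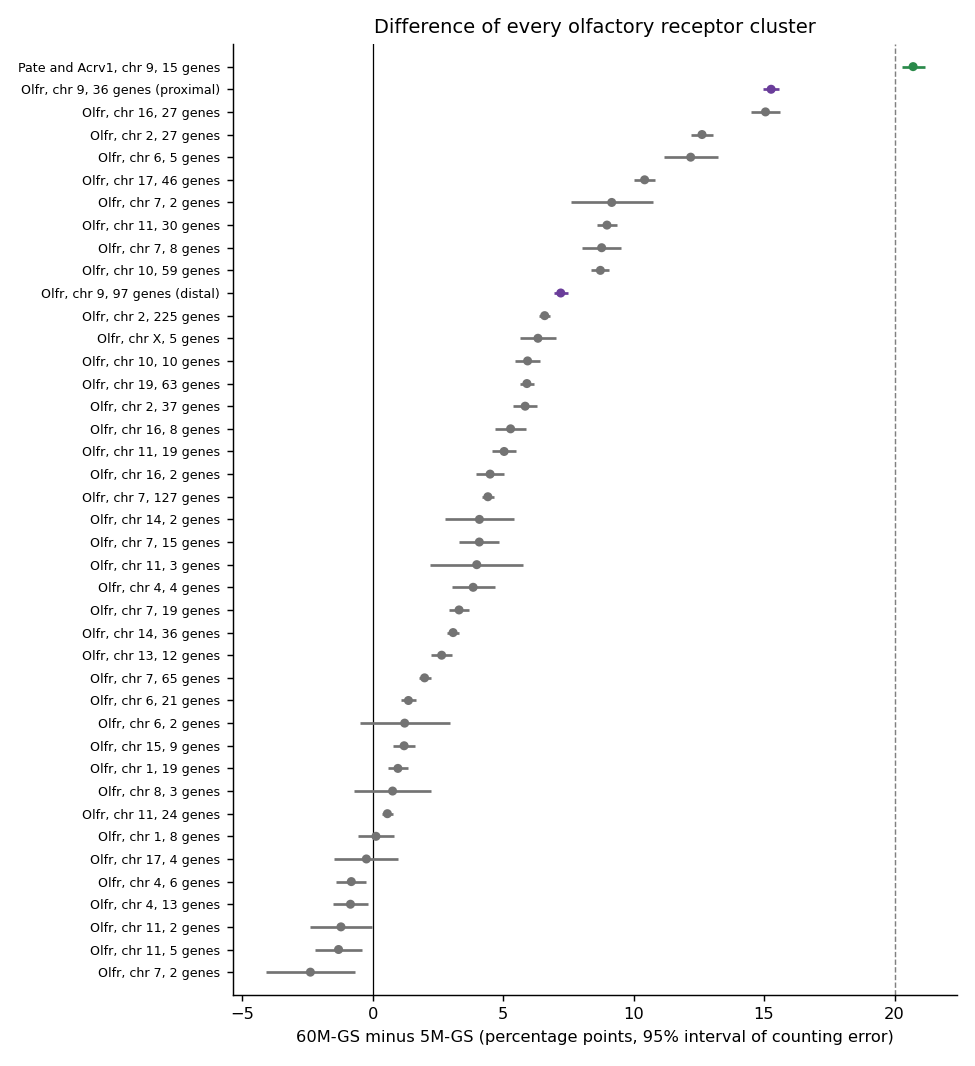
Difference in methylation level (60M-GS minus 5M-GS, percentage points) of every cluster of at least 2 olfactory receptor genes and of the Pate and Acrv1 stretch, with 95% intervals of counting error. The dashed line marks 20 points, the chromosome 9 clusters are purple at 15.3 and 7.21 points, and the Pate and Acrv1 stretch, in green, is the only point beyond the line.

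The other genes within the clusters went the way of the receptors around them in part. Receptor pseudogenes whose symbols end in -ps gained in 7 of 15 cases in the proximal cluster (46.7%) and in 3 of 30 in the distal one (10%). Over all genes 4.35% gained, and 8.19% of those with 4 to 117 CpGs, so the distal share was near the latter. Of 6 further genes in the proximal cluster 2 gained, the annotated pseudogenes Gm7751 (50.7% and then 88.4%) and Gm7808 (49.6% and then 89.3%), the latter beside Olfr77. Of 17 in the distal cluster 1 gained (5.88%). This was Gm8543, an annotated pseudogene next to Olfr938, with 29.2% and then 88.3%, the largest rise of any gene on chromosome 9 (59.1 points). With 2 kb flanks its region overlaps that of Olfr938, so the 2 gains rest in part on the same CpGs. Of the protein-coding genes of the distal cluster that are no receptors, Vwa5a was at 78.7% and then 75.7% (−3.04 points, −5.44 to −0.634, adjusted p = 0.0342, Fisher's exact test). AW551984 was at 64.0% and then 62.0% (−4.48 to 0.608 points), and Tmem225 at 91.3% and then 89.6% (−4.66 to 1.27 points). The gene 1700001J11Rik, between Olfr981 and Olfr982, was at 55.9% and then 56.5%, although both receptors beside it rose by 29.2 and 39.3 points.

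Genes that olfactory neurons use to express receptors and to signal from them were looked at in the same way. In a list of 28 such genes, with the odorant transduction chain (Gnal, Adcy3, Cnga2, Cnga4, Cngb1, Ano2, Omp), receptor transport (Rtp1, Rtp2, Reep1) and factors for receptor choice (Lhx2, Ldb1, Ebf1 to Ebf4, Emx2, Kdm1a, Lbr), 1 gained (3.57%, against 4.35% of all genes) and none lost, with a median difference of 0.733 points. At an adjusted p under 0.05 alone (Fisher's exact test), 12 were higher and 5 lower. The one was Rtp1 on chromosome 16, which helps receptors reach the cell surface, at 64.2% and then 88.0%. Its relative Rtp2 was at 44.7% and then 63.9%, just short of the limit, Lhx2, which helps to switch receptor genes on, at 24.9% and then 39.5%, and Cnga4, a subunit of the olfactory channel, at 46.6% and then 55.3%. These 3 were named after their values were seen. The 5 lower genes, Ebf1, Gnal, Ano2, Ric8b and Stoml3, differed by small amounts, from −2.28 points (Stoml3) to −0.595 points (Ano2). Other chemoreceptor families held both kinds. Of the vomeronasal receptors 18 of 157 Vmn1r genes and 40 of 119 Vmn2r genes gained, and of the trace amine receptors 3 of 15.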

How the data were processed

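Methylation was measured in 2 pooled tables, 1 for each culture age, each named for 2 replicates. Per the submitters' processing notes, reads were mapped to mm10 with Bismark 0.10.0. What filters, deduplication or strand merging preceded this is not given in the sources used here. Each line of the deposited tables is a CpG with its raw count of methylated calls and its raw count of unmethylated calls. The percent column, which the authors made from these counts, was used only as a check. Tables held 19371838 CpGs with 468121185 calls (5M-GS, median 21 per CpG) and 19341319 CpGs with 471693518 calls (60M-GS, median 22), and 17634196 CpGs had at least 5 calls in both. Positions were those of the C in 98.0% of the CpGs of the RefSeq sequences of chromosome 9. In the gene regions 391 of 2933 CpGs had fewer than 5 calls in a table.

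Levels, Fisher's exact tests, adjusted p-values and intervals were computed with Python 3.11.15, scipy 1.17.1 and numba 0.67.0, and the tests were checked on simulated data. Intervals (95% Wilson and Newcombe) cover counting error only, since replicates are pooled and calls of one read are not independent. Named were, per cluster, the 5 largest gains, and among genes with 10 or more CpGs the 3 smallest and the 2 lowest differences. Also named were the 3 lowest and 2 highest levels in 5M-GS, 2 genes on each side of the limit, the 5 highest and 2 lowest tiles of those with 5 or more CpGs, and Acrv1 with 5 Pate genes. Members and lists were chosen with earlier results of these data known. Coverage, flanks, weighting, independence of calls, the limit on size, depth and tile or window size were varied. Chromosome Y was not used.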

Additional observations from a re-analysis of the deposited data

How the results depend on the processing

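The count of 19 gained genes (11 proximal, 8 distal) was 15 to 20 with other coverage minimums, flanks, CpG weights or without very deep CpGs, and no member was lost, but not always with the same genes. Of those called, 14 of 17 with 5 kb flanks (without Olfr834, 16.6 points), 11 of 15 without flanks and 16 of 18 by the mean over CpGs were among the 19. Over all genes these settings called 3.21%, 5.57% and 4.14%. Dividing calls by the CpGs of a region left 0 genes (0 and 0), 7 tiles of 50, 1 start window of 13 and no call for the Pate stretch (20.7 points), by construction since few calls remain. A limit of 10 points gave 45 (22 and 23), against 9.75% of all genes, and one of 30 points 8 (6 and 2), against 2.06%. With -ps symbols 29 of 179 gained, against 4.35% of all genes. The Pate stretch was at 15.8 points on gene regions alone. Cluster rises otherwise kept their direction and side, and a gap of 0.5 Mb gave the same 2 clusters on chromosome 9. The gaps alone and each cluster alone were added after the data were seen.

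Of 265 values for 30 named genes under 9 alternatives, 215 kept direction and call, 31 lost and 4 gained a call, and 15 changed sign. Those were, with 10 calls per CpG, Olfr39 (−0.369 points), Olfr916 (−2.48) and Olfr902 (−0.579); with 1 call, Olfr916 (−1.30) and Olfr902 (−0.109); without flanks, the gained gene Olfr957 (−4.14), Olfr874 (−0.194), Olfr963 (2.49), Acrv1 (1.07) and Pate4 (−5.12); with 5 kb flanks Olfr883 (1.96); and as a mean over CpGs Olfr24 (−0.738), Olfr874 (−1.69), Acrv1 (1.15) and Pate4 (−1.90). The cause was not tested.

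No paired analysis was possible because each age has 1 pooled table, so neither a replicate block nor leaving out a replicate was run. Depth limits single CpGs most, at about 20 calls each.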

Other observations

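The 100 kb window with the largest rise of the genome also lay on chromosome 9, outside the stretches described above. It began at chr9:35300001 and ended at 35400000, 207093 bp ahead of Pate4, and rose from 37.8% to 84.5% on 699 CpGs, by 46.8 points. The long noncoding RNA gene Gm33838, which reaches into it, rose from 37.5% to 84.6%, and Gm33974, a further long noncoding RNA gene within it, was at 87.3% and then 87.2%. It was singled out after its value was seen.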
